A study of Mus musculus with 15 samples.

Results

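The cytochrome P450 genes of families 1 to 3 other than Cyp2a and Cyp2b were followed in mouse liver across 5 groups of libraries. They were the protein-coding genes with a plain Cyp1, Cyp2 or Cyp3 symbol, one subfamily letter and a number, that held at least 10 counts in at least 3 of the 15 libraries. Of 26839 genes listed in the deposited tables, 45 carried such a name and 36 passed the count rule. The 36 were 2 Cyp1a genes, Cyp1b1, 13 Cyp2c genes, 7 Cyp2d genes, 3 Cyp2j genes, 4 Cyp3a genes, and the single genes Cyp2e1, Cyp2f2, Cyp2g1, Cyp2r1, Cyp2s1 and Cyp2u1. The 9 that did not pass were Cyp2c65, Cyp2d34, Cyp2j11, Cyp2j13, Cyp2j8, Cyp2t4, Cyp3a16, Cyp3a44 and Cyp3a57, with 2 to 43 counts each over all 15 libraries.

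RNA-seq had been made from livers of male C57BL/6J mice, with 3 libraries in each group. All animals carried a vector made from adeno-associated virus of serotype 8 (AAV8). Control livers expressed green fluorescent protein (GFP) from the liver-specific thyroxine binding globulin (TBG) promoter, either after 16 weeks on standard chow with normal water or after 16 weeks on the FPC NASH diet with sugar water, a regimen that produces non-alcoholic steatohepatitis (NASH). The other 3 groups were on the same NASH regimen for 16 weeks. One expressed Activin A, a ligand of the transforming growth factor beta family, from the TBG promoter, one received a scrambled short hairpin RNA from an H1 promoter, and one an H1 hairpin against Gpnmb, a glycoprotein gene of macrophages and other cells. The TBG promoter is active in hepatocytes, whereas the H1 promoter is not restricted to a cell type. The sources used here do not give age, the time of vector injection or the hour of tissue collection. They also do not say that each library was a separate animal, and p-values therefore measure only the spread between libraries, which may be technical.

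Libraries held 15276879 to 23467867 counts. Inhba, which encodes the subunit of Activin A, stood at 24.04 to 25.7 CPM (counts scaled to a common library total) in the Activin A libraries and 7.86 to 8.13 CPM in the NASH GFP libraries. In the other groups Inhba stood at 9.45 to 12.7 CPM on chow, 4.76 to 6.04 CPM under the scrambled hairpin and 8.65 to 12.05 CPM under the Gpnmb hairpin. Gpnmb stood at 1.26 to 3.30 CPM under its hairpin and 26.2 to 36.4 CPM under the scrambled hairpin, and at 2.98 to 5.67 CPM under Activin A. Of the 7 hepatocyte markers chosen, 6 matched a listed gene, and their summed level was 97053 to 129074 CPM on chow, 60897 to 77357 CPM in NASH GFP livers, 83009 to 86299 CPM under Activin A, 64943 to 77543 CPM under the scramble and 82172 to 85267 CPM under the Gpnmb hairpin. The libraries come from bulk tissue, in which fewer cells of a type and less RNA per cell cannot be told apart.

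P450 enzymes are heme proteins of the endoplasmic reticulum that insert an oxygen atom into a substrate, with electrons supplied by the reductase encoded by Por. Families 1 to 3 are known for the oxidation of drugs, plant compounds and pollutants in hepatocytes, and many of their members also oxidise steroids, retinoids, bile acids or arachidonic acid. Their transcription is known to respond to ligand-activated receptors: the aryl hydrocarbon receptor (AHR) for the Cyp1 genes, and the constitutive androstane receptor (CAR, Nr1i3) and the pregnane X receptor (PXR, Nr1i2) for many Cyp2c and Cyp3a genes. The set of active genes also varies along the lobule from portal to central vein and between the sexes.

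Many of these genes are recent duplicates. Coding sequences in GENCODE release M21 were 98.1% identical between Cyp2c40 and Cyp2c68, 97.9% between Cyp2c40 and Cyp2c69, 97.5% between Cyp3a25 and Cyp3a59, 96.1% between Cyp2c37 and Cyp2c50, 95.2% between Cyp2c50 and Cyp2c54 and 94.2% between Cyp2c38 and Cyp2c39. Of the 50-base windows of the transcript, 72.1% in Cyp2c40, 54.8% in Cyp2c69, 52.8% in Cyp2c67, 43.3% in Cyp2c68 and 40.5% in Cyp2d10 occurred in another gene. The share was 37.2% in Cyp2d11, 30.7% in Cyp2c50, 30.1% in Cyp2c37, 29.0% in Cyp2d9, 28.0% in Cyp3a59, 26.8% in Cyp3a25 and 25.7% in Cyp2c54. Cyp2d11 shared 26.9% with Cyp2d10, which stood at a mean of 704 CPM against 1.79 CPM for Cyp2d11. No window was shared in Cyp1b1, Cyp2c23, Cyp2c70, Cyp2f2, Cyp2j9, Cyp2r1, Cyp2s1 and Cyp3a13. The sources used here do not say how reads common to such copies were assigned. Values of genes with shared windows are therefore uncertain as to which copy they come from. Cyp2f2 and Cyp2u1 overlap an antisense gene. On their own strand Cyp2c29 overlaps the pseudogene Cyp2c53-ps, Cyp2d9 the pseudogene Gm49421 and Cyp3a13 the pseudogene Gm15502, and on the opposite strand Cyp2d9 overlaps Gm49419 and Cyp2s1 overlaps Gm45226, also pseudogenes. The counts of these 6 genes are uncertain to that extent.

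Of the 36 genes, 30 had a start-site window in RefSeq's table for GRCm38.p6, covering 250 bases before to 50 bases after the annotated start. The windows of 5 Cyp2c genes are shown because they belong to close relatives on which the results turn. Cyp2c38 rose on the NASH diet and Cyp2c39 stood higher on the same diet without passing the test, whereas their relative Cyp2c29 fell. Cyp2c50 fell on the diet and under Activin A. Its near copy Cyp2c37 had log2 fold changes of the same sign in both, -0.55 and -0.57, that did not pass, and the difference between Cyp2c37 and Cyp2c50 was not tested. Capitals mark TATAAA, the core of a TATA box. The windows are given 5′ to 3′ on the strand of the gene. They lie at chr19:39286835-39287134 on the plus strand for Cyp2c29, chr19:39463026-39463325 on the minus strand for Cyp2c38, chr19:39510572-39510871 on the plus strand for Cyp2c39, chr19:39992174-39992473 on the plus strand for Cyp2c37 and chr19:40089429-40089728 on the plus strand for Cyp2c50. The deposited record of Cyp2c29 begins upstream of its window, at 39269405.
Cyp2c29: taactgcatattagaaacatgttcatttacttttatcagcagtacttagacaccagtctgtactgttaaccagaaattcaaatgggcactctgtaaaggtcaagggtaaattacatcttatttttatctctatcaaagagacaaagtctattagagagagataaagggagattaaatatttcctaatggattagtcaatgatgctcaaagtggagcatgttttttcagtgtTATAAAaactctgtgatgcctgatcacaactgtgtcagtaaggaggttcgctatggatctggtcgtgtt
Cyp2c38: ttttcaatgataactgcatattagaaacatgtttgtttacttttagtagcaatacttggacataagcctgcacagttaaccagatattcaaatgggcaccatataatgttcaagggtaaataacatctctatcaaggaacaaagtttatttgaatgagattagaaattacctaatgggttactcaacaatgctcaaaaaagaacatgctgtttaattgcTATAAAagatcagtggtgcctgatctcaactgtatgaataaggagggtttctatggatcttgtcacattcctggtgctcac
Cyp2c39: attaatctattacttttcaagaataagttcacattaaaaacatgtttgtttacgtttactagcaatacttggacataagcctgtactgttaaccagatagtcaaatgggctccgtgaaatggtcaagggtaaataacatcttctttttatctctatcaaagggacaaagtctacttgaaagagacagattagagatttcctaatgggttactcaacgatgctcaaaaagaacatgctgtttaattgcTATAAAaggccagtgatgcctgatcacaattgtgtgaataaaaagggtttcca
Cyp2c37: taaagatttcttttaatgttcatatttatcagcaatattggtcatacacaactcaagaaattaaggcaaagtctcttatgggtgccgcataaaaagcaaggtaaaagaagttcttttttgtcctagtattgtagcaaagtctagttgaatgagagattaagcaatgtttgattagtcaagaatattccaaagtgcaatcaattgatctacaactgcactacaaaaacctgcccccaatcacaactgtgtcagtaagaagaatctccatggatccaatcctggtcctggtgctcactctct
Cyp2c50: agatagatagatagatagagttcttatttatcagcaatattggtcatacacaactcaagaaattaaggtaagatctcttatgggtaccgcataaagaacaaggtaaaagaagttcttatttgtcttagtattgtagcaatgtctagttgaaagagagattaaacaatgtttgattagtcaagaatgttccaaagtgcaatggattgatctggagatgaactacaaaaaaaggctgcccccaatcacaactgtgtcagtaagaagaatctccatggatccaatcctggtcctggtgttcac

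The Cyp2c38 and Cyp2c39 windows were identical at 88.2% of 271 aligned bases, Cyp2c29 and Cyp2c38 at 80.6% of 278, and Cyp2c37 and Cyp2c50 at 89.5% of 295. TATAAA began at position -19 from the annotated start in Cyp2c29, -31 in Cyp2c38 and -3 in Cyp2c39, on the strand of the gene. Searched on both strands and at any position, TATAAA was present in 18 of the 30 windows (60.0%), against 14.2% of all 27025 windows in the table. It lay after the annotated start in Cyp2c40 (position 41) and Cyp2c69 (position 11). In Cyp2d40, Cyp2j5 and Cyp3a11 it began at -91, -128 and -234. The count is therefore not one of TATA boxes in use. GCGTG, the core of the AHR response element, was present in 5 of the 30 (Cyp1a1, Cyp1b1, Cyp2c68, Cyp2j9 and Cyp2r1; 16.7%), against 32.5% of all windows. In the Cyp1a1 window it lay at position -54, upstream of a TATAAA at -30, and the Cyp1a2 window held TATAAA at -29 and no GCGTG. Neither TTCNNNGAA, the palindrome bound by STAT5, nor TTATGNAA, a D-box, was found in any of the 30, against 8.47% and 3.52% of all windows. None of the 4 motifs contains another, and a match is only a description of these windows.

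The 36 genes together took 2.24 ± 0.229% (SD, n = 3) of all counts in the chow libraries. The share was 1.63 ± 0.204% in NASH GFP livers, 1.82 ± 0.0306% under Activin A, 1.82 ± 0.198% under the scramble and 1.85 ± 0.150% under the Gpnmb hairpin. Per length, the most abundant was Cyp2e1, the ethanol- and acetaminophen-oxidising enzyme of pericentral hepatocytes, at a mean of 3572 CPM per kb over all libraries. Cyp3a11, the main drug-metabolising Cyp3a enzyme of mouse liver, followed at 616 CPM per kb and Cyp2d9, a steroid hydroxylase of male liver, at 494 CPM per kb. At the other end were Cyp2d12 at 0.0985, Cyp2s1 at 0.134 and Cyp2g1, an olfactory P450, at 0.270 CPM per kb. Cyp2e1 alone held 29.7 ± 3.32% of the P450 counts on chow, 39.5 ± 4.19% in NASH GFP livers, 47.9 ± 0.309% under Activin A, 48.4 ± 0.532% under the scramble and 42.6 ± 0.902% under the Gpnmb hairpin. A test across all 5 groups called 32 of the 36 genes (edgeR adjusted p under 0.05), against 44.9% of all genes tested.

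**Figure D1:**
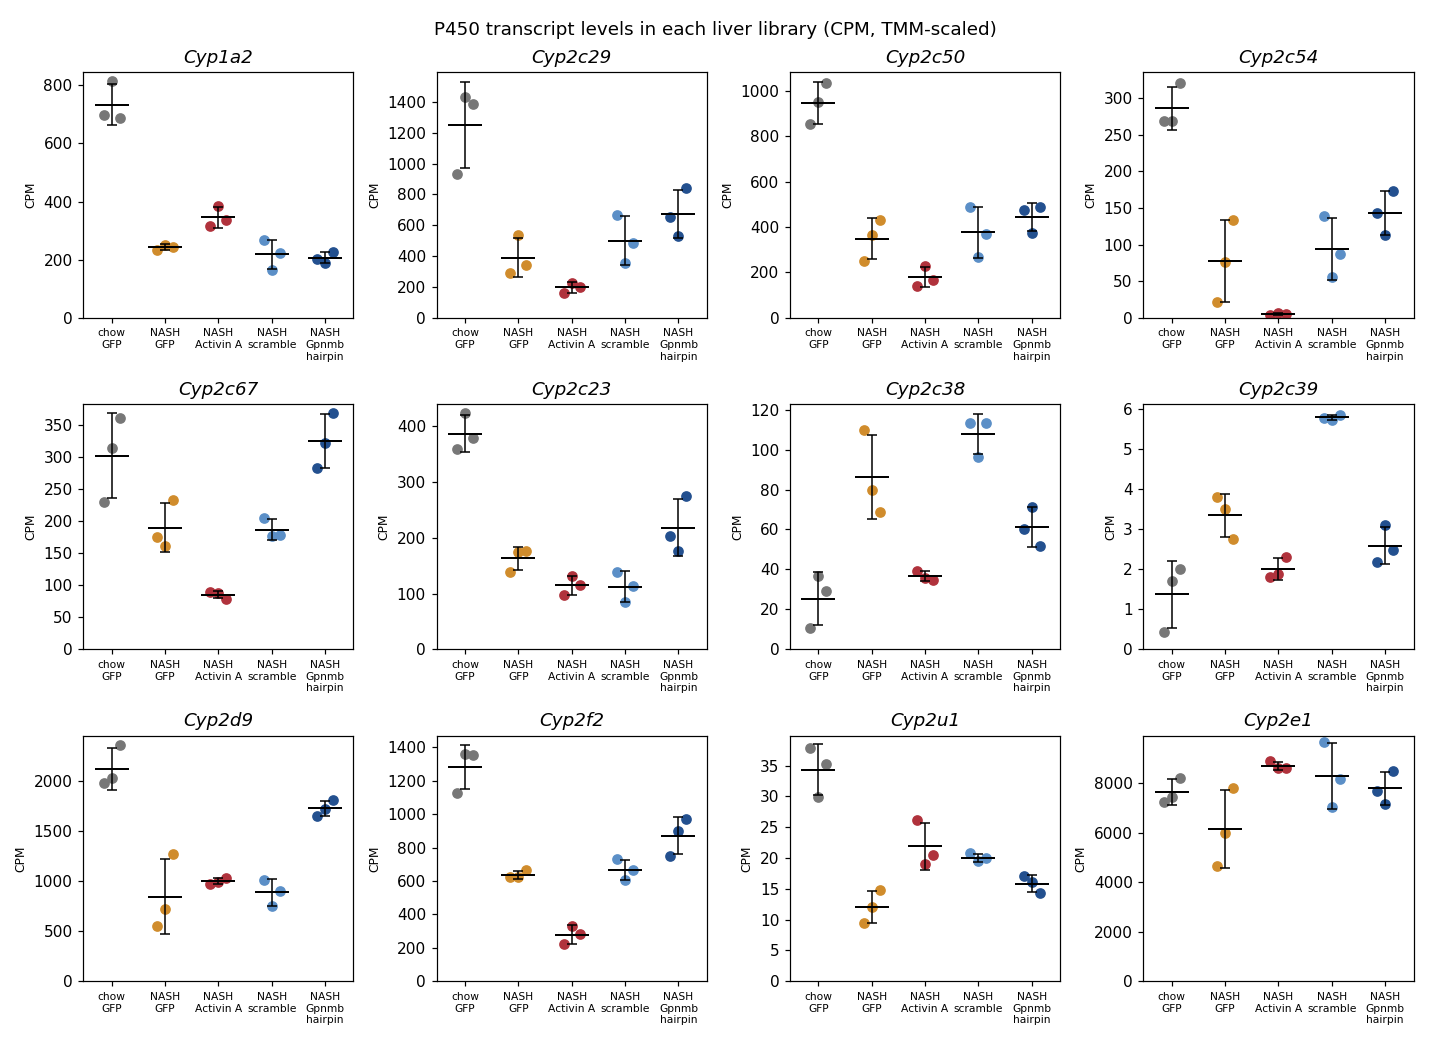
Levels of 12 P450 genes in each library, in CPM scaled with TMM factors over all 15 libraries; each point is a library, horizontal lines are group means and bars 1 SD (n = 3). In the panel for Cyp2c54 the Activin A libraries sit at 3.66 to 5.74 CPM, below the 21.6 to 134 CPM of the NASH GFP libraries.

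The diet comparison asked how P450 transcripts differed between NASH diet and chow livers under the same GFP vector. Of the 36 genes 20 fell and 2 rose, where 5.82% of all genes tested fell, 11.2% rose and 17.0% did either. The genes that fell included Cyp1a2, 8 of the 13 Cyp2c genes, 4 of the 7 Cyp2d genes, 2 of the 4 Cyp3a genes, Cyp2f2 and Cyp2u1. Cyp1b1 and Cyp2c38 rose, and Cyp2e1 did not pass the test. The median log2 fold change was -0.85 over the 36 genes and -0.01 over all genes, and groups did not overlap for 24 of the 36, with 3 higher and 21 lower on the diet, against 34.8% of all genes tested, 20.4% higher and 14.4% lower. Among lists described below, the median was -0.69 over 6 hepatocyte markers, -0.72 over 10 periportal genes and -0.59 over 9 growth hormone signalling genes. It was -0.19 over 13 pericentral genes and 0.13 over 12 CAR and PXR targets outside the P450 families. With library size alone as the scaling, the median over all genes moved to 0.24, 86.8% of all called genes were higher on the diet in place of 65.7%, and 15 P450 genes fell and 3 rose.

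Among the AHR-responsive genes, Cyp1a2, the hepatic enzyme that oxidises caffeine, stood at 699, 814 and 688 CPM in the chow libraries and at 232, 251 and 244 CPM in the NASH GFP libraries. The groups lay far apart, with a log2 fold change of -1.56 ± 0.16 (SE, adjusted p = 0.000266). Cyp1b1, which oxidises oestradiol and is expressed largely outside hepatocytes, stood at 1.76, 0.522 and 1.10 CPM on chow and 5.16, 6.76 and 5.06 CPM on the NASH diet. It was a low transcript that rose in every NASH GFP library, with a log2 fold change of 2.33 ± 0.40 (adjusted p = 0.00330). Cyp1a1, the classical AHR-inducible P450, was near the lower limit of detection at 1.12 to 1.79 CPM on chow and 0.861 to 1.59 CPM on the diet, with a log2 fold change of -0.03 ± 0.43 that did not pass.

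Most of the Cyp2c genes, several of which are arachidonic acid epoxygenases or hydroxylases in mouse, were lower on the diet. Cyp2c29 stood at 932, 1435 and 1385 CPM on chow and 292, 535 and 343 CPM on the diet, a log2 fold change of -1.64 ± 0.26 (adjusted p = 0.00207). Cyp2c50 stood at 853, 951 and 1036 CPM on chow and 251, 364 and 429 CPM on the diet, at -1.41 ± 0.21 on the log2 scale (adjusted p = 0.00159). For both genes every NASH GFP library was below every chow library. Cyp2c54 stood at 269, 269 and 320 CPM on chow and 21.6, 76.1 and 134 CPM on the diet, with a log2 fold change of -1.85 ± 0.48 (adjusted p = 0.0243). Its NASH GFP libraries spread over a wide range, and without replicate 3 the log2 fold change was -2.51. The call of Cyp2c54 was kept in 3 of the 6 fits that left out 1 library (highest adjusted p = 0.0715).

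Cyp2c23, an epoxygenase gene that lies apart from the main cluster, stood at 358, 423 and 378 CPM on chow and 139, 175 and 175 CPM on the diet (log2 fold change -1.21 ± 0.16, adjusted p = 0.000987). Cyp2c70, which makes muricholic acids from chenodeoxycholic acid in mouse, stood at 720, 615 and 757 CPM on chow and 176, 268 and 104 CPM on the diet. Its groups did not overlap and its log2 fold change was -1.89 ± 0.29 (adjusted p = 0.00198). Cyp2c68 stood at 122, 182 and 233 CPM on chow and 95.6, 90.4 and 99.5 CPM on the diet (-0.87 ± 0.21 on the log2 scale, adjusted p = 0.0182). The chow libraries of Cyp2c68 varied more than the NASH GFP libraries, all of which were lower.

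Cyp2c40 and Cyp2c69 were low transcripts of near-identical genes. Cyp2c40 stood at 3.59, 7.75 and 8.62 CPM on chow and 0.0882, 0.383 and 2.04 CPM on the diet (log2 fold change -2.98 ± 0.74, adjusted p = 0.0207), and at -4.76 without NASH GFP replicate 3. The call of Cyp2c40 was kept in 3 of the 6 fits that left out 1 library (highest adjusted p = 0.0704). Cyp2c69 stood at 1.09, 3.65 and 2.90 CPM on chow and 0.309, 0.240 and 1.13 CPM on the diet, groups that overlapped, with -2.16 ± 0.66 on the log2 scale (adjusted p = 0.0479). The call of Cyp2c69 was lost without any 1 of NASH GFP replicates 1 and 2 and chow replicates 2 and 3, with an adjusted p of 0.106 to 0.168.

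In the opposite direction, Cyp2c38 stood at 10.5, 36.7 and 29.2 CPM on chow and 110, 79.8 and 69.0 CPM on the diet, with a log2 fold change of 1.80 ± 0.37 (adjusted p = 0.00865). Its neighbour Cyp2c39, a retinoic acid hydroxylase gene in mouse, stood at 0.426, 1.71 and 2.00 CPM on chow and 3.79, 3.50 and 2.74 CPM on the diet. The Cyp2c39 groups did not overlap, but its log2 fold change of 1.33 ± 0.48 did not pass (adjusted p = 0.0899). The other Cyp2c genes that did not pass were Cyp2c37 at -0.55 ± 0.37, Cyp2c55 at -1.47 ± 0.60 and Cyp2c67 at -0.63 ± 0.20 on the log2 scale.

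Of the Cyp2d genes, Cyp2d9 stood at 1974, 2022 and 2355 CPM on chow and 548, 720 and 1267 CPM on the diet (log2 fold change -1.29 ± 0.28, adjusted p = 0.0108). Cyp2d11 was a low transcript at 3.04, 1.34 and 4.48 CPM on chow and 0.221, 0.0958 and 0.861 CPM on the diet (-2.89 ± 0.71, adjusted p = 0.0188), and -4.11 without NASH GFP replicate 3. It rested on 23 counts in the NASH GFP group. Its call was kept in 2 of the 6 fits that left out 1 library (highest adjusted p = 0.0804). Both Cyp2d9 and Cyp2d11 were lower in every NASH GFP library than in any chow library. Cyp2d10 and Cyp2d22, the latter often set beside human CYP2D6, fell by 0.74 and 0.71 on the log2 scale. Cyp2d12, Cyp2d26 and Cyp2d40 did not pass, with log2 fold changes of -0.52, -0.14 and -0.26.

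Among the single-gene subfamilies, Cyp2e1 stood at 7243, 7426 and 8216 CPM on chow and 4643, 5992 and 7784 CPM on the diet, groups that overlapped (log2 fold change -0.27 ± 0.21, adjusted p = 0.431). Cyp2f2, known for the activation of naphthalene and for expression in lung club cells and periportal hepatocytes, stood at 1128, 1359 and 1354 CPM on chow and 622, 624 and 665 CPM on the diet (-0.97 ± 0.16, adjusted p = 0.00265). The NASH GFP libraries of Cyp2f2 lay close together and all below chow. Cyp2u1, a fatty acid hydroxylase gene, stood at 37.9, 29.9 and 35.3 CPM on chow and 9.44, 11.98 and 14.7 CPM on the diet (-1.48 ± 0.19, adjusted p = 0.000820). Cyp2g1 stood at 1.58, 1.57 and 1.59 CPM on chow and 0.574, 0.0958 and 0.377 CPM on the diet (-2.11 ± 0.59, adjusted p = 0.0337). Every NASH GFP library was below every chow library for Cyp2u1 and Cyp2g1, although Cyp2g1 rested on 22 counts in the NASH GFP group. The vitamin D hydroxylase gene Cyp2r1 fell by 0.84 ± 0.24 and the epoxygenase gene Cyp2j5 fell by 0.58 ± 0.17 on the log2 scale. Cyp2j6 at -0.30, Cyp2j9 at -0.69 and Cyp2s1 did not pass.

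The Cyp3a genes divided. Cyp3a59 stood at 71.0, 71.1 and 71.7 CPM on chow and 20.1, 16.1 and 24.9 CPM on the diet, a log2 fold change of -1.77 ± 0.17 (adjusted p = 0.000228), and its near copy Cyp3a25 fell by 0.96 ± 0.22. Cyp3a11 stood at 2960, 6661 and 6649 CPM on chow and 2829, 3455 and 2449 CPM on the diet. Chow replicate 1 lay within the range of the NASH GFP libraries and the log2 fold change of -0.86 ± 0.29 did not pass (adjusted p = 0.0737), whereas without that library it was -1.18 (adjusted p = 0.00841). Cyp3a13 was at -0.02 ± 0.22.

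The number that fell was 13 without NASH GFP replicate 1, 9 without replicate 2 and 12 without chow replicate 3. These fits called 1355, 1524 and 2157 of all genes in place of 2445. Of the 22 genes called, 11 were called in each of the 6 fits that left out 1 library: Cyp1a2, Cyp1b1, Cyp2c23, Cyp2c29, Cyp2c38, Cyp2c50, Cyp2c70, Cyp2d9, Cyp2f2, Cyp2u1 and Cyp3a59. With library size alone as the scaling the calls of Cyp2c69, Cyp2d10, Cyp2g1, Cyp2j5 and Cyp2r1 were lost.

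**Figure D2:**
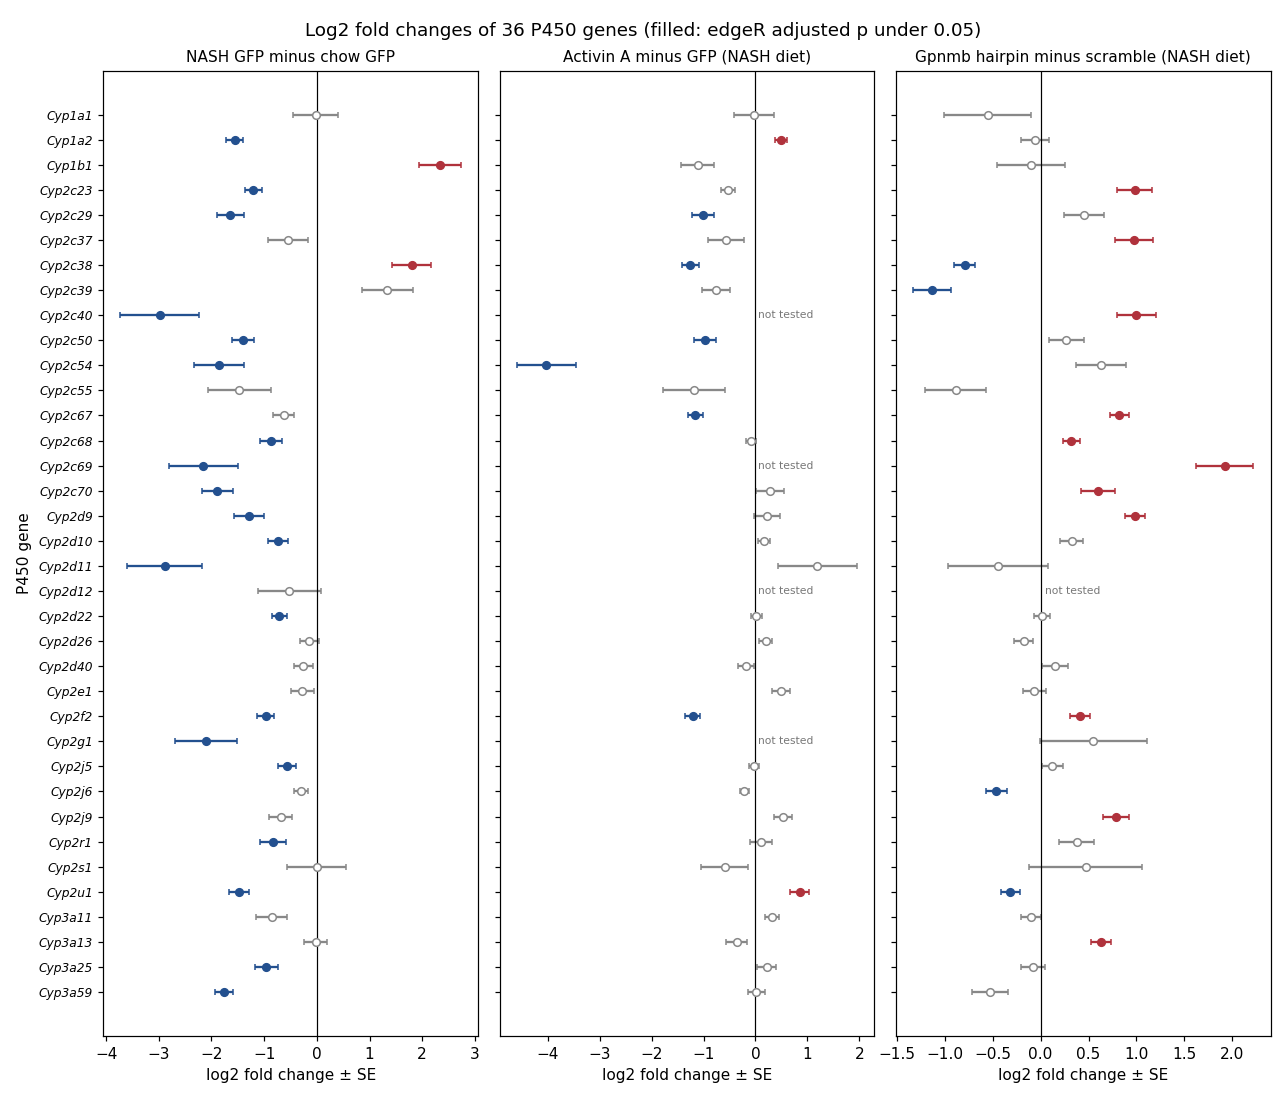
Log2 fold changes with SE of the 36 P450 genes in the diet, Activin A and Gpnmb hairpin comparisons, each from an edgeR fit to 3 against 3 libraries; filled points passed an adjusted p of 0.05. The diet panel holds 20 filled points to the left of 0 and 2 to the right, and the hairpin panel 4 to the left and 11 to the right.

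Activin A was compared with GFP, both from the TBG promoter on the NASH diet. Of the 36 genes 32 were tested, 6 fell and 2 rose, where 3.86% of all genes tested fell, 1.66% rose and 5.52% did either. The 6 that fell were the Cyp2c genes Cyp2c29, Cyp2c38, Cyp2c50, Cyp2c54 and Cyp2c67 with Cyp2f2, and the 2 that rose were Cyp1a2 and Cyp2u1. No Cyp2d, Cyp2j or Cyp3a gene passed the test. The median log2 fold change was -0.06 over the genes tested and 0.00 over all genes, and groups did not overlap for 15, with 4 higher and 11 lower, against 25.9% of all genes tested, 12.5% higher and 13.4% lower. The NASH GFP libraries are those of the diet comparison, so the 2 sets of fold changes share them.

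Cyp2c54 showed the largest fold change among the genes tested. It stood at 3.66, 5.74 and 4.92 CPM in the Activin A libraries, against 21.6, 76.1 and 134 CPM in the NASH GFP libraries given above. The groups did not overlap, and the log2 fold change was -4.03 ± 0.57 (adjusted p = 0.00482), or -3.37 without NASH GFP replicate 3. With limma voom in place of edgeR the adjusted p of Cyp2c54 was 0.0524. Its near copy Cyp2c50 stood at 140, 229 and 168 CPM under Activin A against 251, 364 and 429 CPM (-0.97 ± 0.22, adjusted p = 0.0332). Cyp2c37, the third of these close relatives, stood at 115, 117 and 114 CPM under Activin A against 73.7, 165 and 271 CPM. The NASH GFP libraries of Cyp2c37 spanned the Activin A libraries and its log2 fold change of -0.57 ± 0.35 did not pass (adjusted p = 0.425), although without NASH GFP replicate 1 it was -0.93 (adjusted p = 0.0278).

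Cyp2c67 stood at 89.8, 87.9 and 78.6 CPM under Activin A against 175, 161 and 233 CPM in NASH GFP livers (log2 fold change -1.16 ± 0.14, adjusted p = 0.00239). Cyp2c38, which had risen on the diet, stood at 39.4, 35.6 and 34.7 CPM under Activin A against 110, 79.8 and 69.0 CPM (-1.25 ± 0.16, adjusted p = 0.00297). Both genes were lower in every Activin A library, and the Cyp2c38 levels lay close to the 10.5 to 36.7 CPM of the chow libraries. Cyp2c29 stood at 161, 228 and 200 CPM against 292, 535 and 343 CPM (-1.01 ± 0.22, adjusted p = 0.0278). Cyp2c23 was at 96.9, 132 and 115 CPM against 139, 175 and 175 CPM without passing (-0.52 ± 0.14, adjusted p = 0.0587). Cyp2c39 at -0.76, Cyp2c55 at -1.18, Cyp2c68 at -0.09 and Cyp2c70 at 0.29 on the log2 scale did not pass either.

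Cyp2f2 stood at 220, 333 and 283 CPM under Activin A, against 622, 624 and 665 CPM in NASH GFP livers and 1128 to 1359 CPM on chow. The groups were well apart, with a log2 fold change of -1.21 ± 0.15 (adjusted p = 0.00224). Cyp1a2 stood at 315, 383 and 336 CPM under Activin A against 232, 251 and 244 CPM (0.49 ± 0.11, adjusted p = 0.0289), still below every chow library. Cyp2u1 stood at 26.2, 19.0 and 20.5 CPM against 9.44, 11.98 and 14.7 CPM (0.85 ± 0.18, adjusted p = 0.0279). For these 2 genes the Activin A libraries lay between the NASH GFP and the chow libraries. Cyp2e1 stood at 8895, 8599 and 8609 CPM under Activin A, above the 3 NASH GFP libraries, but its log2 fold change of 0.49 ± 0.17 did not pass (adjusted p = 0.132).

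Cyp2c40, Cyp2c69, Cyp2d12 and Cyp2g1 were not tested because of low counts in both groups. Cyp2c40 held 17 counts over the 3 Activin A libraries and 48 over the NASH GFP libraries, Cyp2c69 held 4 and 33, Cyp2d12 held 2 and 35, and Cyp2g1 held 1 and 22. Cyp1b1 stood at 3.98, 1.95 and 1.94 CPM under Activin A against 5.16 to 6.76 CPM, at -1.11 ± 0.31 on the log2 scale (adjusted p = 0.0731). The Cyp1b1 groups did not overlap, and the Activin A libraries were above the chow libraries. Of the other genes given by library for the diet, Cyp2d9 stood at 969, 994 and 1028 CPM, Cyp2d11 at 1.53, 0.746 and 0.365 CPM, Cyp3a11 at 3954, 3587 and 3451 CPM and Cyp3a59 at 22.4, 19.97 and 20.1 CPM under Activin A. None of these 4 passed, with log2 fold changes of 0.22, 1.19, 0.32 and 0.02.

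The 4 genes called in each of the 6 fits without 1 library were Cyp2c38, Cyp2c54, Cyp2c67 and Cyp2f2. Cyp2c29 and Cyp2c50 were each called in 3 of the 6, Cyp1a2 in 2 and Cyp2u1 in 1, with adjusted p-values of up to 0.152. With all 15 libraries in 1 fit the call of Cyp1a2 was lost (adjusted p = 0.0540). The number that rose was 0 without any 1 of the 3 Activin A libraries or NASH GFP replicate 1, 1 without NASH GFP replicate 2 and 6 without NASH GFP replicate 3. Over all genes, the fits without Activin A replicates 1, 2 and 3 called 293, 372 and 248 in place of 806. Those without NASH GFP replicates 1, 2 and 3 called 591, 627 and 1435.

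The Gpnmb hairpin was compared with the scrambled hairpin on the NASH diet. Of 35 genes tested 11 rose and 4 fell, where 12.2% of all genes tested rose, 12.0% fell and 24.3% did either. The genes that rose were 7 Cyp2c genes (Cyp2c23, Cyp2c37, Cyp2c40, Cyp2c67, Cyp2c68, Cyp2c69 and Cyp2c70), Cyp2d9, Cyp2f2, Cyp2j9 and Cyp3a13. Cyp2c38, Cyp2c39, Cyp2j6 and Cyp2u1 fell. The median log2 fold change was 0.27 over the genes tested and 0.00 over all genes, and groups did not overlap for 15, with 10 higher and 5 lower, against 40.6% of all genes tested, 18.8% higher and 21.8% lower. With library size alone as the scaling, the median over all genes moved to -0.11, 29.0% of all called genes were higher in place of 50.3%, and 9 P450 genes rose and 6 fell.

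Cyp2d9 stood at 1008, 749 and 898 CPM in the scramble libraries and 1646, 1720 and 1803 CPM in the Gpnmb hairpin libraries. The groups did not overlap and the log2 fold change was 0.98 ± 0.11 (adjusted p = 0.000190). Cyp2c67 stood at 205, 176 and 179 CPM under the scramble and 283, 322 and 368 CPM under the hairpin (0.82 ± 0.10, adjusted p = 0.000380). Cyp2c69 stood at 1.10, 0.617 and 0.911 CPM and then 3.51, 3.42 and 2.92 CPM (1.92 ± 0.30, adjusted p = 0.00148), and its near copy Cyp2c40 at 2.82, 2.34 and 2.42 CPM and then 5.09, 5.31 and 4.49 CPM (1.00 ± 0.20, adjusted p = 0.00561). Each of these genes was higher in every hairpin library than in any scramble library.

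Cyp2c23 stood at 139, 84.7 and 113 CPM under the scramble and 202, 177 and 275 CPM under the hairpin (log2 fold change 0.98 ± 0.18, adjusted p = 0.00386). Cyp2c37 stood at 277, 143 and 208 CPM and then 359, 369 and 488 CPM (0.98 ± 0.20, adjusted p = 0.00595). Neither gene had overlapping groups. Smaller rises were found for Cyp2c70, at 119, 87.4 and 106 CPM and then 149, 114 and 201 CPM with overlapping groups (0.60 ± 0.18, adjusted p = 0.0326). Cyp2c68 stood at 108, 85.5 and 90.1 CPM and then 112, 120 and 117 CPM (0.32 ± 0.09, adjusted p = 0.0245). Cyp2f2 stood at 730, 606 and 666 CPM and then 750, 897 and 970 CPM (0.41 ± 0.10, adjusted p = 0.0167), groups that came close without overlapping. Cyp2j9 rose by 0.79 ± 0.13 and Cyp3a13 rose by 0.63 ± 0.11 on the log2 scale.

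Cyp2c38 stood at 113, 96.4 and 113 CPM under the scramble and 60.3, 71.5 and 51.9 CPM under the hairpin (log2 fold change -0.79 ± 0.11, adjusted p = 0.000835). Cyp2c39 stood at 5.78, 5.73 and 5.86 CPM and then 2.18, 3.10 and 2.49 CPM (-1.13 ± 0.20, adjusted p = 0.00276). Neither pair of groups overlapped, and the scramble libraries were the highest of the 5 groups for Cyp2c39. Cyp2u1 stood at 20.8, 19.4 and 19.96 CPM and then 17.1, 16.1 and 14.3 CPM (-0.32 ± 0.10, adjusted p = 0.0418). The Cyp2u1 difference was small and its groups did not overlap. Cyp2j6 fell by 0.46 ± 0.11 on the log2 scale.

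Cyp2c54, Cyp2c29 and Cyp2c50, which had fallen under Activin A, did not pass under the hairpin. Cyp2c54 stood at 139, 55.9 and 87.0 CPM under the scramble and 143, 113 and 173 CPM under the hairpin (log2 fold change 0.63 ± 0.26, adjusted p = 0.109), and at 1.03 without scramble replicate 1 (adjusted p = 0.00642). Cyp2c29 stood at 666, 355 and 482 CPM and then 650, 531 and 842 CPM (0.45 ± 0.21, adjusted p = 0.147), at 0.71 without scramble replicate 1 (adjusted p = 0.0222). The scramble libraries of both genes reached into the range of the hairpin libraries, and the same held for Cyp2c50 at 489, 267 and 371 CPM and then 473, 374 and 488 CPM. Cyp1a2 stood at 266, 165 and 221 CPM and then 201, 189 and 226 CPM (-0.06 ± 0.14). Cyp1b1 stood at 2.07, 3.53 and 1.98 CPM and then 1.33, 2.37 and 3.19 CPM, and Cyp3a59 at 41.2, 33.7 and 35.1 CPM and then 23.2, 17.8 and 34.1 CPM. Neither passed, with log2 fold changes of -0.10 and -0.53.

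Cyp2e1 and Cyp3a11, the most abundant genes per length, did not pass. Cyp2e1 stood at 9665, 7039 and 8155 CPM under the scramble and 7693, 7175 and 8495 CPM under the hairpin (log2 fold change -0.07 ± 0.12, adjusted p = 0.741). Cyp3a11 stood at 1974, 1879 and 1912 CPM and then 1726, 1539 and 2023 CPM (-0.10 ± 0.10, adjusted p = 0.513), overlapping groups that were both below every chow library. Cyp2d11 stood at 5.16, 1.23 and 1.82 CPM and then 0.969, 2.10 and 2.81 CPM, and Cyp2g1 at 0.618, 0.353 and 0.198 CPM and then 0.666, 0.316 and 0.703 CPM, at log2 fold changes of -0.44 and 0.55 with overlapping groups. Cyp2d12 was not tested. Of the 15 genes called, 11 were called in each of the 6 fits without 1 library, all but Cyp2c68, Cyp2c70, Cyp2f2 and Cyp2u1. With all 15 libraries in 1 fit 7 of the 15 calls were lost, those of Cyp2c37, Cyp2c38, Cyp2c40, Cyp2c68, Cyp2c70, Cyp2f2 and Cyp2u1, with adjusted p-values of 0.0563 to 0.226 and log2 fold changes of the same sign. Over all genes that fit called 1880 in place of 3601.

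**Figure D3:**
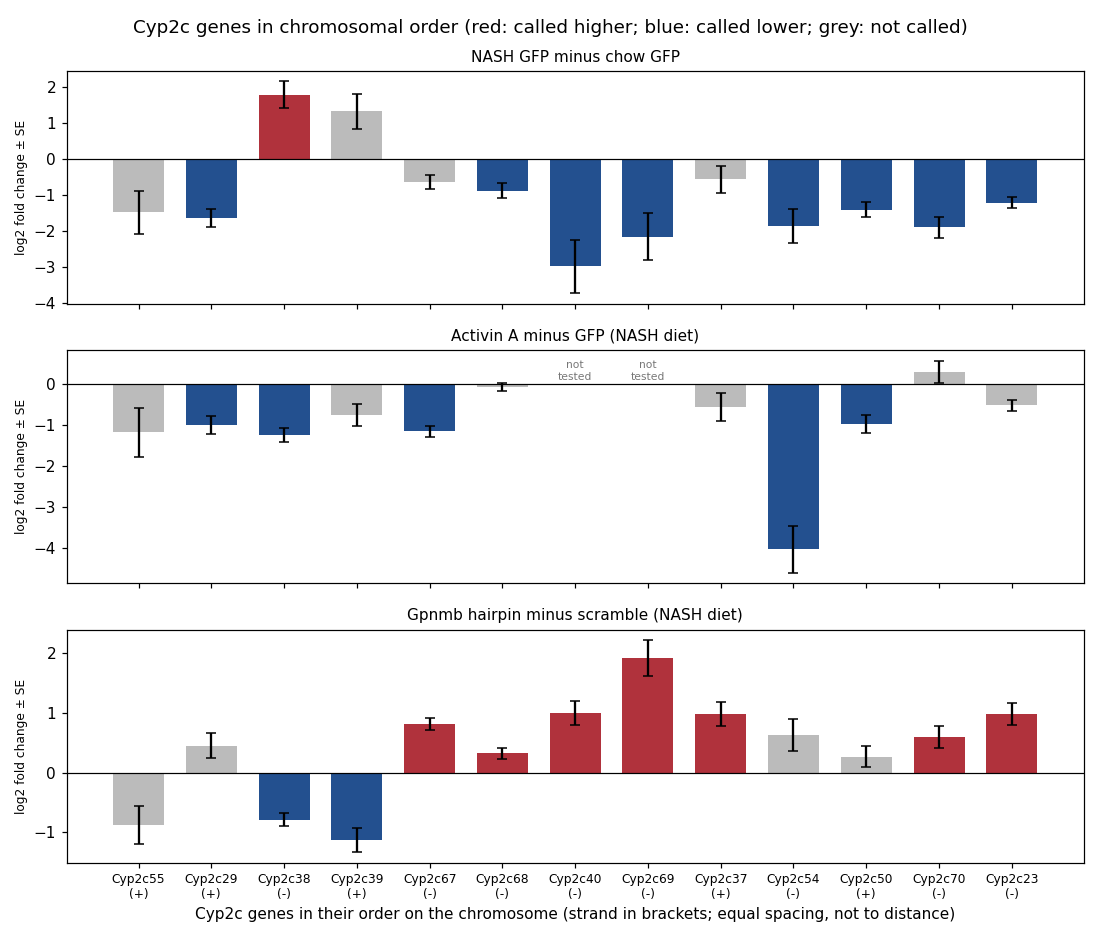
Log2 fold changes with SE of the 13 Cyp2c genes in their order on chromosome 19, at equal spacing, in the diet, Activin A and Gpnmb hairpin comparisons. In the hairpin panel Cyp2c38 and Cyp2c39 are the bars called lower and the 7 bars called higher stand to their right.

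All 13 Cyp2c genes lie on chromosome 19 of GRCm38, from Cyp2c55 (39007019 to 39042693) to Cyp2c23 (44005022 to 44029208). The first 12 lie close together and Cyp2c23 stands 4998 kb from the start of Cyp2c55. Cyp2c38 (39389556 to 39463075, minus strand) and Cyp2c39 (39510862 to 39568529, plus strand) follow each other in the order. On the diet they were the Cyp2c genes with positive log2 fold changes, between Cyp2c29 at -1.64 and Cyp2c67 at -0.63. Under the hairpin both fell, whereas the 5 genes that follow them (Cyp2c67, Cyp2c68, Cyp2c40, Cyp2c69 and Cyp2c37) rose by 0.32 to 1.92. The 3 Cyp2c genes that fell on the diet and again under Activin A were Cyp2c29, Cyp2c54 and Cyp2c50, of which the last 2 are neighbours on opposite strands and are 95.2% identical in coding sequence.

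Whether the Activin A and hairpin fold changes differed was tested in a fit to all 15 libraries. The difference, Activin A minus hairpin, was negative and passed for 8 of the 36 genes and was positive and passed for 1, where 2.14% and 1.90% of all genes tested did so and 4.04% passed in either direction. The 8 were Cyp2c23 (-1.51 ± 0.26), Cyp2c29 (-1.46 ± 0.36), Cyp2c50 (-1.25 ± 0.31), Cyp2c54 (-4.66 ± 0.64), Cyp2c67 (-1.99 ± 0.23), Cyp2c69 (-4.66 ± 0.98), Cyp2f2 (-1.62 ± 0.20) and Cyp3a13 (-0.99 ± 0.25), on the log2 scale. Cyp2u1, at 1.17 ± 0.22, was the gene in the other direction. Its 2 controls stood apart, at a mean of 12.1 CPM in NASH GFP livers and 20.1 CPM under the scramble. The log2 fold change between these controls was 0.72 and did not pass. The Cyp2u1 mean under Activin A, 21.9 CPM, lay near that of the scramble livers. The controls of Cyp2c23 also stood apart, at a mean of 163 CPM in NASH GFP livers and 112 CPM under the scramble. Its mean under Activin A, 115 CPM, likewise lay near that of the scramble livers. The differences of Cyp2u1 and Cyp2c23 therefore hold the gap between their controls. Cyp2f2, Cyp2c67 and Cyp2u1 passed in both single comparisons, with opposite signs. The value for Cyp2c69 rested on 4 counts in the Activin A group. For Cyp2c38, which fell in both comparisons, the difference was -0.46 ± 0.40 and did not pass (adjusted p = 0.627). The calls of Cyp2c29, Cyp2c50 and Cyp3a13 were lost in at least 1 fit without a library, and the other 6 were called in each of the 15.

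**Figure D4:**
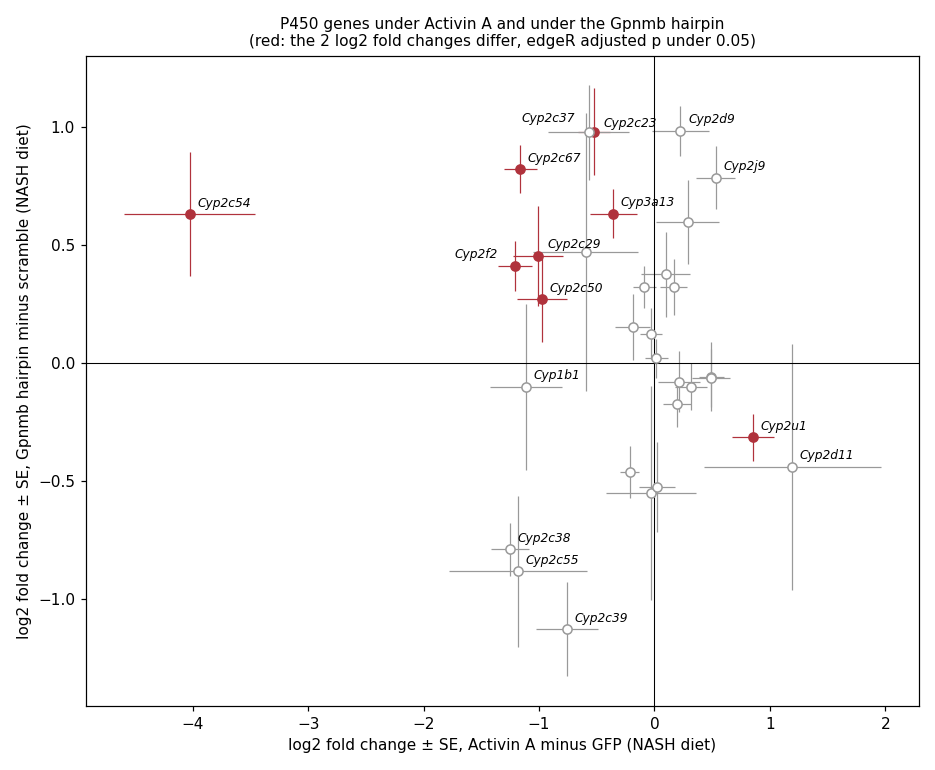
Log2 fold change under Activin A (horizontal axis) and under the Gpnmb hairpin (vertical axis) for P450 genes tested in both comparisons, with SE; each point is a gene, and red points are genes whose fold changes differed in the fit to all 15 libraries. Cyp2c54 lies farthest to the left at -4.03 and 0.63. Cyp2c38, Cyp2c39 and Cyp2c55 lie at the lower left, below 0 on both axes. Cyp2c55, at -1.18 and -0.88, was called in neither comparison.

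The comparisons with Activin A and with the hairpin rest on different control vectors, and these controls were compared directly. Between scramble and NASH GFP livers edgeR called 0 of 35 P450 genes, where 0.324% of all genes tested were called. Of the 35, 9 had an unadjusted p under 0.05, a share that was not counted over all genes. DESeq2 called 4 P450 genes higher and 3 lower, and 735 of all genes, where edgeR called 49. The groups did not overlap for 8 genes, against 25.1% of all genes tested: Cyp2c39, Cyp2c40, Cyp2d11, Cyp2u1 and Cyp3a59 were higher under the scramble, and Cyp1b1, Cyp2c23 and Cyp3a11 were lower. Overlap was judged in every comparison on CPM scaled within its own 2 groups, and for Cyp2c23 the CPM scaled over all 15 libraries, as printed here, overlap at 139 CPM. Cyp3a11, at 1879 to 1974 CPM under the scramble and 2449 to 3455 CPM in NASH GFP livers, had a log2 fold change of -0.62 ± 0.14 (adjusted p = 0.0848). Without NASH GFP replicate 3, edgeR called 6 P450 genes higher and 5 lower, and 2034 of all genes in place of 49.

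Scramble livers were also set against the chow livers, whose libraries this comparison shares with the diet comparison and which differ in vector as well as diet. Of the 36 genes 22 were lower and 2 higher under the scramble, where 12.8% and 16.5% of all genes tested were and 29.3% were called in either direction. Groups did not overlap for 27, with 24 lower and 3 higher, against 47.2% of all genes tested, 20.7% lower and 26.5% higher. With library size alone as the scaling 16 were lower and 4 higher, 83.8% of all called genes were higher in place of 56.2%, and the median over all genes moved from 0.01 to 0.29. The genes called higher were Cyp2c38 and Cyp2c39, in place of Cyp1b1 and Cyp2c38 on the diet under GFP. Cyp1b1 was at 1.15 ± 0.45 without passing (adjusted p = 0.0781), beside 2.33 ± 0.40 in NASH GFP livers. Cyp2c38 was at 2.10 ± 0.35 on the log2 scale, beside 1.80 ± 0.37 in NASH GFP livers, and Cyp2c39 at 2.11 ± 0.41, beside 1.33 ± 0.48. Cyp2c70 was at -2.73 ± 0.15 beside -1.89 ± 0.29, and Cyp3a11 at -1.48 ± 0.27 beside -0.86 ± 0.29. Smaller differences from chow under the scramble than in NASH GFP livers were seen for Cyp2u1, at -0.76 ± 0.13 beside -1.48 ± 0.19, and Cyp3a59, at -0.94 ± 0.12 beside -1.77 ± 0.17.

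Other genes on which P450 activity depends were counted from lists. For this and every list below, the shares of all genes called were 17.0% on the diet, 5.52% under Activin A and 24.3% under the hairpin. Counts near or below these shares are no result about a list. Of 7 redox partners tested, Por rose by 0.94 ± 0.18 on the diet and by 0.66 ± 0.15 under Activin A, and under the hairpin the cytochrome b5 reductase gene Cyb5r3 fell by 0.38 ± 0.08, with no other call. Of 12 genes of heme synthesis and breakdown, the heme oxygenase gene Hmox1 (1.35 ± 0.17) and Alas1 (1.07 ± 0.30), the rate-limiting enzyme of heme synthesis, rose on the diet. Under Activin A the biliverdin reductase gene Blvrb rose (0.77 ± 0.09) and Hmox1 fell (-1.09 ± 0.22). Under the hairpin 2 rose and 2 fell, among them Alas1 (-0.54 ± 0.08), Alad (-0.43 ± 0.06) and Fech (0.29 ± 0.08), enzymes of heme synthesis. Of 4 flavin monooxygenases, Fmo2 (1.57 ± 0.25) and Fmo5 (0.76 ± 0.18) rose on the diet, Fmo1 (0.51 ± 0.12) and Fmo2 (0.84 ± 0.20) rose under Activin A, and under the hairpin Fmo2 rose (0.55 ± 0.17) and Fmo5 fell (-0.73 ± 0.11). Of 2 epoxide hydrolases, Ephx2 rose under the hairpin (0.52 ± 0.09), and Ephx1 had the smaller p on the diet (0.30 ± 0.21) and under Activin A (0.44 ± 0.16) without passing.

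None of 13 xenobiotic receptors and partners passed on the diet, the nearest being the coactivator gene Ppargc1a (0.65 ± 0.21, adjusted p = 0.0597). Under Activin A the CAR gene Nr1i3 rose (0.73 ± 0.13). Under the hairpin 3 rose, the repressor gene Nr0b2 (1.28 ± 0.19), Ppargc1a (0.93 ± 0.16) and the fatty acid receptor gene Ppara (0.35 ± 0.06), and 3 fell, among them Nr1i3 (-0.49 ± 0.11), which was named after its value was seen. Of 3 AHR targets tested outside the P450 families, the quinone reductase gene Nqo1 rose on the diet (1.31 ± 0.30). Nqo1 (-1.10 ± 0.13) and Ugt1a6a (-0.51 ± 0.15) fell under the hairpin, and none passed under Activin A, where Ugt1a6a was at 0.44 ± 0.16. Of 12 CAR and PXR targets 4 rose and 1 fell on the diet, led by p-value by the carboxylesterase gene Ces2a (-2.09 ± 0.21) and by Abcb1a (2.49 ± 0.43) and Gadd45b (2.68 ± 0.50). Aldh1a1 fell under Activin A (-0.95 ± 0.10). Under the hairpin 1 rose and 5 fell, with Aldh1a7 at -0.93 ± 0.10, Fmo5 at -0.73 ± 0.11 and Aldh1a1 at -0.46 ± 0.08.

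Of 11 hepatocyte transcription factors, Nr5a2 (-0.70 ± 0.16) and Foxa1 (-0.71 ± 0.17) fell on the diet and none passed under Activin A, where Onecut1 was at 0.85 ± 0.22 (adjusted p = 0.0592). Under the hairpin 4 rose and 4 fell, and Hnf4a (0.78 ± 0.09), Foxa1 (0.76 ± 0.09) and Foxa3 (0.57 ± 0.08) had the smallest p-values. Of 4 clock-linked bZIP factors none passed on the diet, with Dbp at 0.36 ± 0.22, or under Activin A, with Hlf at 0.43 ± 0.12. Under the hairpin Nfil3 rose (1.61 ± 0.09) and Dbp (-2.66 ± 0.27) and Tef (-0.93 ± 0.11) fell. Of 9 growth hormone signalling genes, the binding protein gene Igfals (-1.36 ± 0.16) and the receptor gene Ghr (-0.59 ± 0.15) fell on the diet and Igfals rose under Activin A (0.56 ± 0.13). Socs2 (1.84 ± 0.18), Stat5b (0.40 ± 0.07) and Igf1 (0.33 ± 0.10) rose under the hairpin.

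Sex-biased liver genes outside these families moved beside the P450 genes. Of 11 male-biased genes 8 fell and 0 rose on the diet, with Selenbp2 at -4.67 ± 0.21, Serpina1e at -4.43 ± 0.24 and Gstp1 at -2.02 ± 0.19, and the list's median was -2.02. Of 10 tested under the hairpin 9 rose and 0 fell, with Serpina1e at 3.41 ± 0.10, Cyp7b1 at 1.93 ± 0.14 and Gstp1 at 1.45 ± 0.11, and a median of 1.63. Under Activin A 2 of 10 rose and 4 fell, with Cyp4a12a at -1.45 ± 0.18, Mup20 at -0.79 ± 0.10 and Serpina1e at 1.23 ± 0.16. Of the female-biased genes 3 of 4 rose on the diet and 1 fell, with Cyp17a1 at 2.86 ± 0.18, Abcd2 at 2.02 ± 0.30 and Fmo2 at 1.57 ± 0.25. Under Activin A 1 of 4 rose and 2 fell, with Cyp17a1 at -1.46 ± 0.15, Prlr at -2.07 ± 0.23 and Fmo2 at 0.84 ± 0.20. Under the hairpin 1 of 6 rose and 2 fell, with Cyp17a1 at -1.13 ± 0.17, Hao2 at -3.48 ± 0.73 and Fmo2 at 0.55 ± 0.17.

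Genes that mark position in the lobule were also counted. Of 10 periportal genes 7 fell on the diet, with Gls2 at -1.12 ± 0.15, Ass1 at -1.002 ± 0.16 and Cps1 at -1.02 ± 0.21, and 5 rose under the hairpin, with Pck1 at 1.26 ± 0.12, Cps1 at 1.05 ± 0.14 and Cdh1 at 0.78 ± 0.21. None passed under Activin A, where Arg1 was at 0.36 ± 0.11. Of 13 pericentral genes 1 rose and 2 fell on the diet, with Gulo at -0.59 ± 0.15, Glul at 0.62 ± 0.17 and Notum at -0.72 ± 0.20. Under Activin A Lect2 rose (0.83 ± 0.17) and Rhbg fell (-2.26 ± 0.36), and under the hairpin 0 rose and 6 fell, with Lect2 at -1.17 ± 0.11, Glul at -0.62 ± 0.09 and Rnf43 at -0.59 ± 0.10.

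Markers of inflammation and of other liver cells moved with the same groups. Of the acute phase and cytokine genes 4 of 15 rose on the diet, with Tgfb1 at 1.48 ± 0.20, Il1rn at 2.31 ± 0.38 and Lcn2 at 2.63 ± 0.72. Under Activin A 6 of 15 fell, with Il1rn at -2.33 ± 0.23, Lcn2 at -2.89 ± 0.50 and Orm2 at -1.75 ± 0.32. Under the hairpin 9 of 16 fell and 2 rose, with Lcn2 at -2.41 ± 0.20, Orm3 at -3.71 ± 0.35 and Orm2 at -2.58 ± 0.25. All 8 macrophage and monocyte markers rose on the diet, and 7 of 8 fell under Activin A and under the hairpin. Their summed level was 160 to 175 CPM on chow, 512 to 605 CPM in NASH GFP livers, 200.5 to 228 CPM under Activin A, 455 to 553 CPM under the scramble and 213 to 280.3 CPM under the hairpin. Of 10 stellate and fibroblast markers 9 rose on the diet, 4 fell under Activin A and 7 fell under the hairpin, with summed levels of 248 to 280.3, 486 to 721, 451 to 476, 569 to 719 and 380.3 to 437 CPM in the same order of groups.

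Of 6 hepatocyte markers tested 3 fell on the diet, 2 rose under Activin A and 3 rose under the hairpin. Beside this and the counts that follow, 17.0%, 5.52% and 24.3% of all genes tested were called in these 3 comparisons. Kupffer cell markers rose in 3 of 5 cases on the diet, and fell in 1 under Activin A and 2 under the hairpin. Sinusoidal endothelial markers rose in 3 of 8 cases on the diet, rose in 1 and fell in 1 under Activin A, and fell in 4 under the hairpin. Biliary markers rose in 3 of 5 cases on the diet and fell in 1 of 5 under Activin A. T and NK cell markers rose in 2 of 4 cases on the diet and fell in 1 of 4 under Activin A, neutrophil markers rose in 2 of 2 on the diet, and no B or plasma cell marker passed. Of markers of neighbouring tissues, 1 of 2 intestine markers rose and the 1 pancreas marker tested fell on the diet. No kidney or lung marker reached the level for testing, and the highest summed level of either list in a library was 0.144 CPM. The part of these cell types, zones and sex-biased genes in the P450 results was not tested.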

How the data were processed

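Liver RNA had been made into TruSeq stranded mRNA libraries, per the labels' protocols, and 15 libraries in 5 groups of 3 were used. Per the file headers, the authors deposited 3 tables of raw counts per gene and library, each holding the 2 groups of 1 comparison, with gene length and position. The genome build was GRCm38 (mm10) per the submitters' processing notes. The sources used here do not name the aligner, the annotation release or the counting program, nor its handling of strand and of reads common to near-identical genes. The NASH GFP libraries stand in 2 tables, whose counts were equal for all 23148 genes listed in both. No library was a copy of another: the chi-square between replicates was 5.54 or more per degree of freedom.

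From the deposited counts, genes were filtered with filterByExpr (minimum count 10), scaled by TMM (trimmed mean of M values) and tested in R 4.3.3 with edgeR 4.0.16, by its quasi-likelihood test. Each fit held the 2 groups compared and no covariate. The difference between the Activin A and hairpin fold changes, and the test over 5 groups, used all 15 libraries in 1 fit. A gene was called, and is said to have risen or fallen, where its p, adjusted by Benjamini-Hochberg over every gene tested, was under 0.05. Tests are two-sided, and SE is the log2 fold change divided by the square root of its F statistic. CPM values use TMM factors over all 15 libraries, joined over the tables with unlisted genes at 0, and CPM per kb divides by the deposited gene length. Intervals of counting error were not computed, and counts are given for only some of the low genes. The edgeR steps were tested on simulated data.

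Every one of the 36 genes may be named. Library values are given for genes called in at least 2 of the diet, Activin A and hairpin comparisons, and for those called in 1 with a log2 fold change of at least 1 in size. For these genes they cover the comparisons that called the gene, and only in part the others. The 3 most abundant genes per length are given in every library. A few close relatives were added after their values were seen. From other lists at most 3 called genes per comparison are named, by smallest p, or, without a call, the gene of smallest p. The genes and lists were chosen with earlier results of these data known. Alternatives were RLE scaling, library size alone, DESeq2 1.42.0, limma 3.58.1 voom, no filter, 1 fit to all libraries, a replicate block and leaving out each library. Start-site windows came from RefSeq, and coding sequences from GENCODE M21 transcripts as the longest open reading frame, aligned with Biopython 1.88.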

Additional observations from a re-analysis of the deposited data

Results flagged for a closer look

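The difference between the Activin A and the Gpnmb hairpin log2 fold change passed the test in the fit to all 15 libraries for 9 P450 genes. It was -1.51 for Cyp2c23, -1.46 for Cyp2c29, -1.25 for Cyp2c50, -4.66 for Cyp2c54, -1.99 for Cyp2c67, -4.66 for Cyp2c69, -1.62 for Cyp2f2, 1.17 for Cyp2u1 and -0.99 for Cyp3a13. Cyp2c54 and Cyp2c69 share the rounded value, and Cyp2c69 rests on 4 counts over the 3 Activin A libraries. No outlier test was run, since every group holds 3 libraries.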

How the results depend on the processing

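With a setting changed, no P450 fold change of the diet, Activin A or hairpin comparison reversed while called. Counts of P450 genes called moved by over 1.5 times as follows. Under Activin A 1 gene rose in place of 2 with the replicate block and with all 15 libraries in 1 fit. Over all genes these settings called 590 and 977 in place of 806. Under the hairpin 6 rose in place of 11 and 2 fell in place of 4 with all 15 libraries in 1 fit. Over all genes that fit called 1880 in place of 3601. Between scramble and GFP, in place of 0 higher and 0 lower, DESeq2 gave 4 and 3, no filter 3 and 4, the replicate block 1 and 0, and all 15 libraries in 1 fit 2 and 0. Over all genes these settings called 735, 576, 69 and 116 in place of 49. Against chow, 4 genes were higher under the scramble in place of 2 with library size alone, which called 5036 of all genes in place of 4297. The cause was not tested.

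Leaving out 1 library at a time, the number of genes that fell on the diet ran from 9 to 19 and the number that rose stayed at 2. Under Activin A 4 to 9 fell and 0 to 6 rose, and under the hairpin 3 to 4 fell and 8 to 15 rose. Over all genes these fits called 1355 to 2233 on the diet, 248 to 1435 under Activin A and 1923 to 3496 under the hairpin. With every library kept, 2445, 806 and 3601 were called. Between scramble and GFP 0 to 6 were higher and 0 to 5 lower, and between scramble and chow 2 to 3 were higher and 15 to 22 lower. The difference between the Activin A and hairpin fold changes was called for 6 to 12 genes, and the test over 5 groups for 30 to 34. Over all genes, 3 to 2034 were called between scramble and GFP in place of 49, and 2357 to 4812 between scramble and chow in place of 4297. For the difference 367 to 875 of all genes were called in place of 633, and for the test over 5 groups 5806 to 7554 in place of 7041.

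The replicate numbers did not pair the libraries: correlations of deviations between libraries with the same number ran from -0.13 to -0.03 in the diet comparison and from -0.10 to 0.03 in the Activin A comparison. With the replicate block 16 genes fell on the diet, 7 fell under Activin A, and 13 rose and 4 fell under the hairpin. Over all genes it gave 1597, 590 and 2985 calls in these comparisons, in place of 2445, 806 and 3601. The block ended the calls of Cyp2c69, Cyp2g1, Cyp2j5 and Cyp2r1 on the diet, of Cyp1a2 under Activin A, of Cyp2u1 under the hairpin, and of Cyp2c50 and Cyp3a13 for the difference. For Cyp2c69, limma voom ended the calls on the diet and for the difference. Genes under about 50 counts in a group, such as Cyp2c69, Cyp2d12 and Cyp2g1, were limited by depth.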
